A study of Mus musculus with 7 samples.

Results

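Phase II conjugating enzymes, the glutathione transferases (GST), UDP-glucuronosyltransferases (UGT) and cytosolic sulfotransferases (SULT), were followed through the postnatal life of the mouse adrenal gland. The genes were taken by symbol: all rows whose name begins with Gst followed by one of the class letters a, k, m, o, p, t or z, or with Ugt or Sult, and then a digit, leaving out names marked as pseudogenes. This gave 63 of the 35976 genes in the deposited table, 21 in each of the 3 families. Reads were found for 56 of them, and 37, those averaging 10 or more normalized counts across the libraries, were tested (16 GST, 12 UGT and 9 SULT). The other 26 included 7 without a read. The choice used names only, so it also took in Ugt8a, known for making the myelin lipid galactosylceramide, and Gstz1, known for its step in tyrosine breakdown.

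The RNA came from adrenal glands pooled by age and sex. All mice were of the inbred strain C57BL/6J, and the labels name no treatment or engineered allele. The youngest pool was of late embryos (E18.5), with 40 glands of undetermined sex. On postnatal day 1 (P1) the male pool held 16 glands and the female pool 22. At 2 weeks of age 6 glands of either sex were pooled, and at 12 weeks 4. Each pool gave 1 library, so no group had a replicate, and a value in one library has no error of its own beyond counting. Where a pair of values is given for an age, the male library comes first. Total reads in genes ranged from 15184210 to 23551289 per library.

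Conjugation makes a compound more soluble and ready for export. GSTs join it to glutathione, UGTs transfer glucuronic acid from UDP-glucuronic acid, and SULTs transfer sulfate from the donor PAPS. The substrates include drugs, lipid peroxidation products, bilirubin and steroids, and these enzymes are best known from liver, kidney and gut. In the adrenal cortex, sulfation and glucuronidation bear on steroids, and glutathione conjugation on the oxidised lipids that arise beside steroid synthesis.

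The pools were checked against markers before the enzymes were read. The 6 adrenal cortex markers were present in all 7 libraries, with the lowest sum in P1 female (243499 normalized counts) and the highest in 12-week female, as were the 6 chromaffin markers (39957 to 123171). Markers of neighbouring tissue were not evenly spread. The 8 hepatocyte markers summed to 262723 to 380260 normalized counts at E18.5 and P1, to 13123 in 2-week male and 34280 in 2-week female, and to 454 and 432 in 12-week male and female. The 8 kidney tubule markers summed to 10430 in P1 male, 2808 in P1 female and at most 66.2 later, with Umod and Aqp2 at 0 or 1 read from 2 weeks on. The 8 exocrine pancreas markers summed to 6285 in P1 male and at most 96.0 elsewhere. The 4 Y-linked genes in the library labelled P1 female were at 20.7% of the P1 male level, against 0.0527% at 2 weeks and 0.0203% at 12 weeks, so that library goes against its label in part. In bulk samples such as these, fewer cells of a type and less RNA per cell cannot be told apart.

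**Figure D1:**
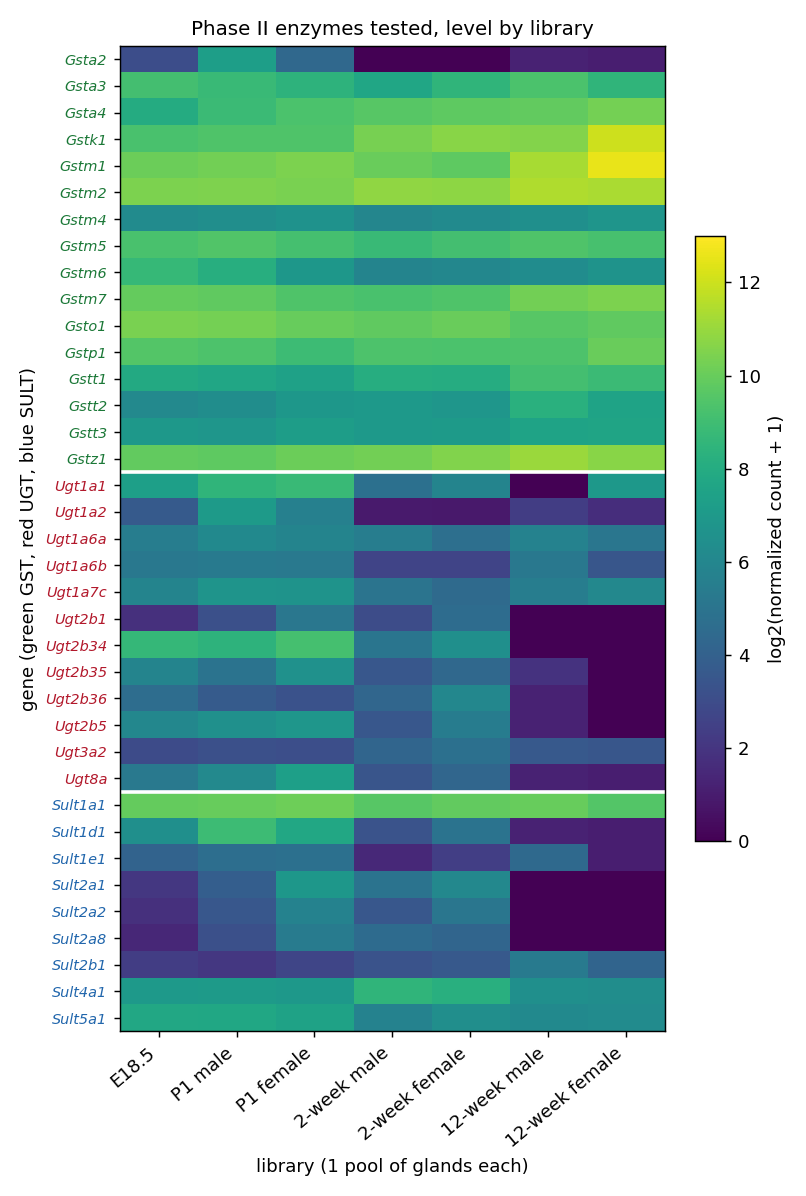
Levels of the 37 enzymes tested, 1 row per gene and 1 column per library, coloured by log2(normalized count + 1), with GST genes above, UGT genes in the middle and SULT genes below. Most GST rows stay bright across the columns, Gsta2 being dark from 2 weeks on, and 12 of the 21 GST genes had at least 100 normalized counts in every library, while many UGT and SULT rows are dark at 12 weeks.

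GST transcripts were the most evenly present of the 3 families. At least 100 normalized counts in every library were found for 12 of 21 GST genes, 1 of 21 SULT genes (Sult1a1) and 0 of 21 UGT genes. Of the 56 enzymes with reads, 27 were at or under 3 reads in both 12-week libraries, of which 13 were UGT, 11 SULT and 3 GST genes. The share of all genes at or under 3 reads in both was not computed. Compared per kilobase of merged exon (GENCODE M21 lengths, mm10), the highest mean levels over the 7 libraries were those of Gstm1 (1367 normalized counts per kilobase), Gstm2 (1118) and Gstk1 (1034). Sult1a1, a phenol sulfotransferase, followed with 621. The highest UGT levels were those of Ugt1a1 (76.3) and Ugt2b34 (47.6).

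The mu-class GST genes lie side by side on mouse chromosome 3 between positions 107895821 and 108044894 (mm10), and 6 of the 7 were tested. Gstm1, an abundant cytosolic GST, had 1089.7 normalized counts at E18.5, 1209 and 1378 at P1, 1048 and 877 at 2 weeks, and 2508 and 5984 at 12 weeks. Both 12-week libraries were above all 5 earlier ones. Its rise from 2 to 12 weeks was 2.01 ± 0.332 on the log2(normalized count + 1) scale (SE; limma, adjusted p 0.012). Without either P1 library, which leaves the 2 ages compared untouched, its adjusted p was 0.0696 (P1 male left out) and 0.0693 (P1 female left out), and without 2-week female it was 0.105. Gstm2 had 1350.0 to 1428 normalized counts at E18.5 and P1, 1825 and 1763 at 2 weeks, and 2809 and 2576 at 12 weeks. It rose by 0.58 ± 0.136 from 2 to 12 weeks (adjusted p 0.0343), and with libraries scaled to equal totals this step no longer passed (0.42, adjusted p 0.0788). Gstm7 had 606 and 693 at 2 weeks and 1205 and 1373 at 12 weeks (0.99 ± 0.197, adjusted p 0.0215). Its rise from P1 to 12 weeks (0.73 ± 0.197, adjusted p 0.0261) did not pass with equal totals.

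Sequences 5′ of the annotated starts are given for 2 of these neighbours because both rose to 12 weeks and their windows hold different motifs. Each window runs from 250 bases before to 50 bases after a RefSeq start (GRCm38.p6), 5′ to 3′ on the gene's strand. Capitals mark TATAAA in Gstm1 (chr3:108017769-108018068, minus strand, 30 bases before the start) and the core TGACNNNGC of the antioxidant response element in Gstm7 (chr3:107931565-107931864, minus strand, beginning 129 bases before the start). The latter element is the binding motif of Nrf2, the factor best known for inducing GST genes. RefSeq lists a further window for each gene, in which Gstm7 holds TATAAA and Gstm1 none of the motifs. That window belongs to the outermost annotated start of the gene, at 107931817 for Gstm7 and 108017973 for Gstm1. Both motifs in capitals lie downstream of it, inside the annotated gene.
Gstm1: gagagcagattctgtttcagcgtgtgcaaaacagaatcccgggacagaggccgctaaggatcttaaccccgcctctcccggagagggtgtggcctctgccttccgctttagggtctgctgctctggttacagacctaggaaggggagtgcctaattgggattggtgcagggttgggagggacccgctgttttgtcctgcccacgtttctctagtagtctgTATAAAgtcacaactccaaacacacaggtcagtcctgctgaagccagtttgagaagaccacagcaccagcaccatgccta
Gstm7: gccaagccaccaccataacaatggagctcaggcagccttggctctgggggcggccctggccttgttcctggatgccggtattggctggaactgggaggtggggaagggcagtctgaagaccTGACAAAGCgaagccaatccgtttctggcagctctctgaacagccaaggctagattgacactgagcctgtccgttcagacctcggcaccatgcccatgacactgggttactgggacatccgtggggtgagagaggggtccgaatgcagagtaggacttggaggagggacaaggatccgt

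Windows were found for 55 of the 63 enzymes, 66 in all. Searched on both strands, TGACNNNGC was in 3 of the 66 (4.55%; Gsta3, Gstm5 and Gstm7), against 12.4% of all 32851 promoter windows. TATAAA was in 15 (22.7%), against 13.6% of all windows. The Nr5a1 motif CAAGGTCA was in 0 of the 66, against 1.56% of all, and the palindromic Hnf1 motif was in 1 (Ugt3a1), against 0.0396%. No match overlapped one of another motif. These are matches of letters in short windows.

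Outside the mu class, Gstk1, a GST of mitochondria and peroxisomes (chr6:42245935-42250447), had 614 normalized counts at E18.5, 684 and 685 at P1, 1299 and 1658 at 2 weeks, and 1544 and 4149.9 at 12 weeks. The highest was 12-week female, and the 2-week and 12-week libraries were all above the 3 earlier ones. It rose from P1 to 12 weeks by 1.89 ± 0.321 (adjusted p 0.00486), and without P1 female this was 1.44 (adjusted p 0.0791). Gsta4, which conjugates aldehydes from lipid peroxidation, had 471 and 646 normalized counts at P1 (male and female), 787 and 873 at 2 weeks and 954 and 1229.8 at 12 weeks. It rose from P1 to 12 weeks by 0.97 ± 0.158 (adjusted p 0.00409). Gstt1, a theta-class GST, had 205 and 176 at P1, 278 and 261 at 2 weeks and 552 and 468 at 12 weeks, and rose over the whole interval by 1.42 ± 0.182 (adjusted p 0.00175). Gstt2 (1.28 ± 0.327) and Gstz1 (0.96 ± 0.204) rose as well from P1 to 12 weeks. In the GENCODE M21 annotation 12.2% of the exon bases of Gstz1 overlap other genes, whose reads cannot be told apart without strand.

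Over the 16 GST genes tested, 8 rose and 1 fell from P1 to 12 weeks, and 7 did not pass. The median log2 difference was 0.64, against -0.03 over all 16720 genes tested, of which 17.6% rose and 23.5% fell in this comparison. From P1 to 2 weeks 0 GST genes rose and 1 fell, against 5.89% and 10.5% of all genes tested. From 2 to 12 weeks 4 rose and 0 fell, against 5.4% and 9.89%. The 6 adipocyte markers rose from P1 to 12 weeks as well (6 of 6, median log2 difference 7.25), with sums of 561 and 1010.0 at P1, 32349 and 35063 at 2 weeks, and 26380 and 23008 at 12 weeks, and their part was not tested. The 1 GST gene that fell was Gsta2, an alpha-class GST of liver and gut. It had 7.56 normalized counts at E18.5, 153 and 19.9 at P1, 0 in both 2-week libraries, and 1.40 and 1.13 at 12 weeks. The P1 male library, where it was highest, also had the highest kidney, pancreas and hepatocyte marker sums. Their part in this value was not tested. Of the 50-base stretches of the Gsta2 transcript, 64.2% also occur in transcripts of other genes, so its reads may be split.

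Among the UGT genes tested, 8 fell from P1 to 12 weeks. Ugt2b34, of the subfamily known for glucuronidating steroids (chr5:86889767-86906937), had 408 normalized counts at E18.5, 340.4 and 569.6 at P1, 32.0 and 86.5 at 2 weeks, and no read in either library at 12 weeks. The 3 ages after birth did not overlap. It fell by 3.04 ± 0.456 on the log2 scale from P1 to 2 weeks (limma, adjusted p 0.00896) and by 5.75 ± 0.456 from 2 to 12 weeks (adjusted p 0.00136). Against a floor of 3 reads per library, it was at least 7.64-fold (male) and 25.5-fold (female) lower at 12 weeks than at 2 weeks. The fitted differences of genes at 0 depend on the pseudocount of 1. Over the whole interval from P1 to 12 weeks it fell by 8.79 ± 0.456, more than the other 36 enzymes tested. Its window is shown for that reason, and it holds none of the 4 motifs (chr5:86906888-86907187, minus strand).
Ugt2b34: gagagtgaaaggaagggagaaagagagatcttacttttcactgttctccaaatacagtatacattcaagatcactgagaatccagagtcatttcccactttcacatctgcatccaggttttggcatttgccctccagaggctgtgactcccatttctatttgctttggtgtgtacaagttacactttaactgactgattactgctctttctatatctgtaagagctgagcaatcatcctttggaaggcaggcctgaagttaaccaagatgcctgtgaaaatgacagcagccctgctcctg

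The other Ugt2b genes tested ended equally low. Ugt2b1, Ugt2b5, Ugt2b35 and Ugt2b36 had 0 to 2.80 normalized counts in both 12-week libraries. Ugt2b5 had 90.8 and 111 at P1, 10.7 and 43.2 at 2 weeks, and 1.40 and 0 at 12 weeks, and it fell by 6.04 ± 0.766 from P1 to 12 weeks (adjusted p 0.00171). Of its 50-base stretches, 41.7% occur in other transcripts, mostly of the neighbouring Ugt2b38. Summed over the 7 Ugt2b genes, the level was 512 and 826 at P1, 79.2 and 237 at 2 weeks, and 5.6 and 0 at 12 weeks.

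Markers of other tissues fell over the same steps. All 8 hepatocyte markers fell from P1 to 2 weeks (log2 differences from -9.62 to -2.60), and 7 of 8 from 2 to 12 weeks (-6.06 to -4.26). Afp (-2.13) did not pass in that step. At 2 weeks, the female library held 2.61 times the hepatocyte sum of the male library and 2.998 times the Ugt2b sum. At P1 the library labelled female held 0.691 times the hepatocyte sum and 1.61 times the Ugt2b sum. The 6 skeletal muscle markers fell as well, 6 of 6 in the first step and 5 of 6 in the second. The kidney markers fell in the first step too (8 of 8), and 0 of 8 passed in the second. The part of RNA from these tissues in the Ugt2b values was not tested.

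**Figure D2:**
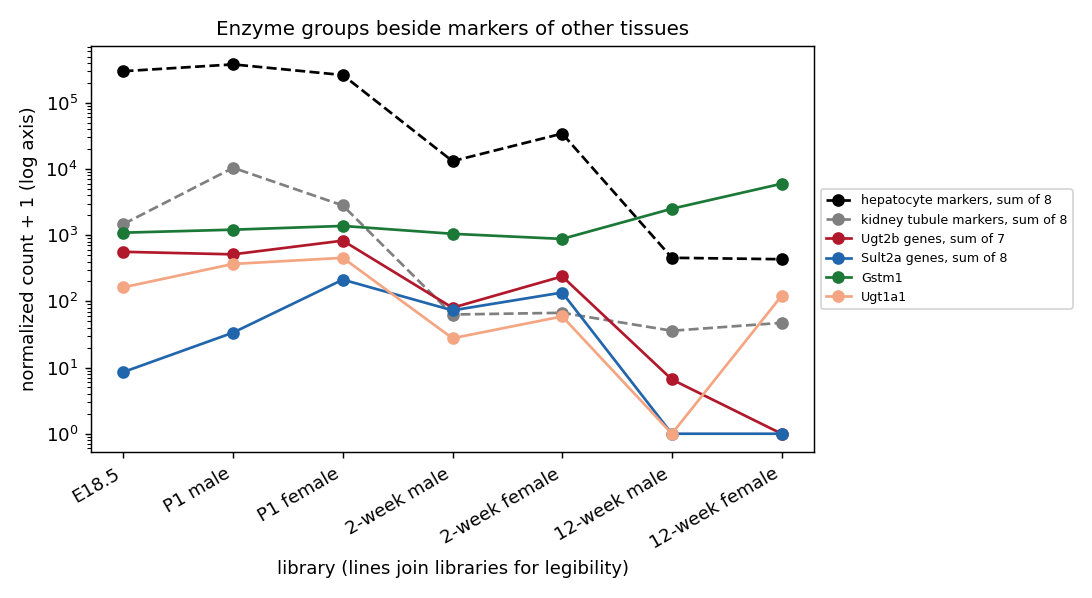
Summed normalized counts plus 1 on a log axis for each library, with solid lines for enzymes and dashed lines for marker lists of other tissues. The Ugt2b and hepatocyte sums both descend from P1 to 12 weeks and at 2 weeks both are higher for females, while Gstm1 is highest at 12 weeks.

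Ugt8a had 37.8 normalized counts at E18.5, 67.9 and 162 at P1, 9.79 and 18.53 at 2 weeks, and 1.40 and 1.13 at 12 weeks. It fell at both steps (log2 differences of -2.87 ± 0.532 and -2.68 ± 0.532, limma, adjusted p 0.0167 and 0.0215). It was among the few enzymes past the threshold in both, with Ugt2b34, Sult1d1 and Sult4a1.

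The Ugt1a genes share a locus on chromosome 1 (88055388 to 88220002, plus strand). Each has its own first exon and start and is spliced to a common set of later exons, so the enzymes differ in the part that binds the substrate. In the GENCODE M21 annotation 50.3 to 82.7% of the exon bases of these 8 genes are shared with another gene. How the authors' counting treated such reads is not given in the sources used here, so the Ugt1a levels are uncertain in size. Ugt1a1, the enzyme that conjugates bilirubin, had 162 normalized counts at E18.5, 367 and 454 at P1, 26.7 and 58.2 at 2 weeks, and 0 and 119.9 at 12 weeks. The P1 libraries were highest, and 12-week female was above both 2-week libraries. Ugt1a1 fell by 5.22 ± 1.44 from P1 to 12 weeks (adjusted p 0.0281). Without P1 male the difference was -3.37 (adjusted p 0.28), and without P1 female -7.07 (adjusted p 0.0859).

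Ugt1a6a, known for phenols, had 44.5 normalized counts at E18.5, 70.4 and 57.4 at P1, 45.4 and 25.6 at 2 weeks, and 53.1 and 32.8 at 12 weeks, and none of its age comparisons passed. The difference between Ugt1a1 and Ugt1a6a was not tested, and neither passed in a single step. In the longest protein-coding transcript of Ugt1a6a (2297 bases), 100% of the 50-base stretches also occur in Ugt1a7c. Of all 4312 exon bases of Ugt1a6a, however, 2142 are shared with no other gene. Of the stretches of Ugt1a1, 58.2% occur in other transcripts. How far Ugt1a6a had a course of its own in these reads was not tested. Ugt1a7c had 106 and 100.5 at P1, 31.1 and 21.2 at 2 weeks, and 44.7 and 66.8 at 12 weeks, and it fell by 1.96 ± 0.368 in the first step (adjusted p 0.0173). Ugt1a2 had 133 and 49.7 at P1, 0.89 and 0.88 at 2 weeks, and 4.19 and 2.26 at 12 weeks (a log2 difference of -5.45 ± 0.607 in the first step, adjusted p 0.00405). Ugt1a6b fell in that step as well. The starts of Ugt1a1 (chr1:88211709-88212008) and Ugt1a6a (chr1:88134559-88134858, both plus strand) are shown because each gene of this locus has its own start, while the later exons are common. Both windows lack the 4 motifs, so no base is in capitals.
Ugt1a1: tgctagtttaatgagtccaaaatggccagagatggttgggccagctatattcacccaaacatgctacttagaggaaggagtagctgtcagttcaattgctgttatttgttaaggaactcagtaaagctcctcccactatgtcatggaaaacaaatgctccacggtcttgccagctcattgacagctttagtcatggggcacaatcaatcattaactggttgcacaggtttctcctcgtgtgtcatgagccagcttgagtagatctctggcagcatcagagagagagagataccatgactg
Ugt1a6a: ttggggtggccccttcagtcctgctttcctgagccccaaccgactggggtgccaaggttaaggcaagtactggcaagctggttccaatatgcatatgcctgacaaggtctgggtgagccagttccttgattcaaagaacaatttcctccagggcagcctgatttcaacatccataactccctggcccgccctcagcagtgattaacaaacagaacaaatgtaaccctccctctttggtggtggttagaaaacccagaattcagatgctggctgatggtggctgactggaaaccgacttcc

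Over the 12 UGT genes tested, 0 rose and 8 fell from P1 to 12 weeks, 5 fell from P1 to 2 weeks and 5 from 2 to 12 weeks. Of all genes tested 23.5%, 10.5% and 9.89% fell in these comparisons. The median log2 difference from P1 to 12 weeks was -4.25, and -2.98 with values raised to the floor of 3 reads and no pseudocount, against -0.03 for all genes in both. Of the 37 enzymes tested, 12 were at or under 3 reads in both 12-week libraries, among them the Ugt2b genes tested, Ugt1a2 and Ugt8a. These met the mean of 10 through earlier libraries, so that filter favoured falls to 12 weeks in the counts and medians.

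Among the sulfotransferases, Sult1a1 was steady, with 743 to 1129 normalized counts in the 7 libraries and no step past the threshold. The Sult2a genes, a chromosome 7 cluster (13623967 to 14494230) of enzymes that sulfate hydroxysteroids such as DHEA, had no read in either library at 12 weeks. Sult2a1 had 3.36 normalized counts at E18.5, 13.9 and 117 at P1, 30.2 and 65.3 at 2 weeks, and no read in either library at 12 weeks. Each 2-week library was above both 12-week ones. Its difference from 2 to 12 weeks was -5.51 ± 0.761 (limma, adjusted p 0.00677), which on a floor of 3 reads is at least 7.21-fold in males and 19.2-fold in females. Sult2a2 and Sult2a8 were also at 0 reads at 12 weeks and fell in the same step (log2 differences of -4.33 ± 0.713 and -4.38 ± 0.781). Of the 50-base stretches of Sult2a1 and Sult2a2, 33.2% and 62.1% occur in other transcripts, so their shares may be exchanged. In the same step 7 of 8 hepatocyte, 5 of 6 skeletal muscle and 2 of 3 markers of the X-zone, an inner cortical layer, fell, and their part was not tested. The other 5 Sult2a genes were not tested, and 3 of them had no read in any library.

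Sult1d1, which sulfates catecholamines and phenols, had 89.1 normalized counts at E18.5, 488 and 224 at P1, 8.90 and 30 at 2 weeks, and 1.40 and 1.13 at 12 weeks. The ages after birth did not overlap. Its log2 differences were -4.24 ± 0.672 and then -2.95 ± 0.672 (limma, adjusted p 0.0106 and 0.0325). The second step did not pass with a pseudocount of 5 (adjusted p 0.0754) or with edgeR (adjusted p 0.0837). Its highest value was in P1 male, as were the kidney, pancreas and hepatocyte sums. The part of these tissues was not tested.

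Sult4a1, a sulfotransferase best known from neurons, was highest in between. It had 128 normalized counts at E18.5, 133 and 123 at P1, 361 and 293 at 2 weeks, and 88.1 and 81.5 at 12 weeks. Both 2-week libraries were above all others. It rose by 1.34 ± 0.219 from P1 to 2 weeks (adjusted p 0.0117) and fell by 1.93 ± 0.219 afterwards (adjusted p 0.00375). The summed chromaffin markers were also highest at 2 weeks (123171 and 105557 normalized counts), but the list was mixed. Th, Pnmt, Chga and Chgb were highest in 2-week male, Dbh in P1 female (12454) and Slc18a1 in 12-week male (1218). Of the 6 markers, 1 rose from P1 to 2 weeks and 1 fell from 2 to 12 weeks past the threshold. Their part was not tested. Sult5a1 had 181 to 218 normalized counts at E18.5 and P1 and 52.5 to 83.8 later (a log2 difference of -1.56 ± 0.305 from P1 to 2 weeks, adjusted p 0.0194). Sult2b1, which sulfates cholesterol, had 3.27 and 5.52 at P1, 8.90 and 11.5 at 2 weeks, and 40.5 and 17.0 at 12 weeks. It was the 1 SULT gene that rose from P1 to 12 weeks (2.37 ± 0.621, adjusted p 0.0235), against 5 that fell. Of all genes tested 17.6% rose and 23.5% fell in this comparison. Sult1d1 and the Sult2a genes tested met the mean of 10 through libraries before 12 weeks, which favoured falls.

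**Figure D3:**
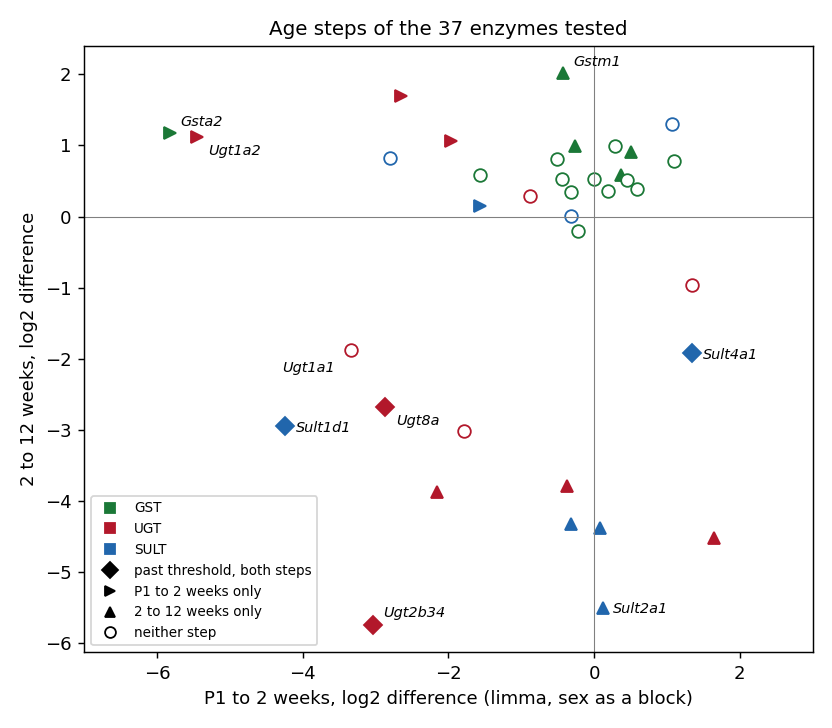
Log2 difference from P1 to 2 weeks (horizontal) and from 2 to 12 weeks (vertical) for the 37 enzymes tested, coloured by family, with the symbol giving the steps past an adjusted p of 0.05. GST genes lie near or above 0 in the second step, and Ugt2b34, Sult1d1 and Ugt8a fell in both.

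Of the 37 enzymes tested, 9 passed from P1 to 2 weeks (24.3%, against 16.4% of all genes tested), 1 higher and 8 lower (5.89% and 10.5% of all genes). From 2 to 12 weeks 14 passed (37.8%, against 15.3%), 4 higher and 10 lower (5.4% and 9.89% of all genes). From P1 to 12 weeks 23 passed (62.2%, against 41.2%), 9 higher and 14 lower (17.6% and 23.5% of all genes). The 12 enzymes tested that were at or under 3 reads in both 12-week libraries met the filter through earlier libraries, which favoured falls to 12 weeks. The fits rest on 2 libraries per age. In limma the first count was 0 without P1 male (11 at an unadjusted p under 0.05), P1 female (13) or 2-week male (10), where 0.012%, 0.167% and 1.2% of all genes passed. It was 4 without 2-week female (4.49% of all genes) and 16 without either 12-week library (26.7%). The second count was 7 without either P1 library (5.94% and 6.13% of all genes), 5 without 2-week male (3.18%) and 1 without 2-week female (2.52%). The third was 15 without P1 female (19.2%). The counts over all genes moved the same way as those of the enzymes.

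Other genes of the pathway were read from a list of 31, of which 30 were tested. From P1 to 12 weeks 8 rose, 9 fell and 13 did not pass, against 17.6% of all genes that rose and 23.5% that fell. The microsomal GST genes Mgst1 (1.04 ± 0.317), Mgst2 (1.74 ± 0.369) and Mgst3 (1.11 ± 0.149), which code for membrane enzymes, rose. Of the cofactor genes, Papss2, which makes the sulfate donor, had 1120.2 and 1349 normalized counts at P1, 650.3 and 595 at 2 weeks, and 460.0 and 374 at 12 weeks. It fell by 1.56 ± 0.187 (adjusted p 0.00135). Gsr, which regenerates glutathione, fell by 1.15 ± 0.192. Ugp2, also a cofactor gene, fell by 0.61 ± 0.17 (limma, adjusted p 0.0294). Gclc, Gclm, Gss and Ugdh, which supply glutathione and UDP-glucuronic acid, did not pass in this comparison. Neither did Papss1 and Slc35d1. Of the regulators, Nfe2l2, the gene of Nrf2, rose (0.73 ± 0.163), and Ahr, the dioxin receptor, fell by 1.84 ± 0.213. The xenobiotic receptors Nr1i2 and Nr1i3 fell from 59.7 and 123.6 and from 22.9 and 71.7 normalized counts at P1 to at most 1.40 at 12 weeks. The exporter Abcc2 went from 745 and 937 to 6.99 and 4.53 (a log2 difference of -6.98 ± 0.396, adjusted p 0.000143). All 3 are known from hepatocytes, and the hepatocyte markers fell over the same interval (8 of 8). Their part was not tested. The exporters listed were mixed. Abcc1 (0.616 ± 0.166) and Abcc4 (1.085 ± 0.172) rose, and Abcc3 (-0.88 ± 0.248) and Abcg2 (-0.73 ± 0.220) fell.

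Whether the enzymes differed by sex was first tested over all postnatal ages with age as a block. Of the 37 tested, 0 passed in limma (1 of 37 at an unadjusted p under 0.05), against 0.00598% of all genes. EdgeR on the recovered reads also gave 0 (8 at an unadjusted p under 0.05). The 1 was Gsta4, lower in males at 3 of 3 ages by 0.32 ± 0.129 (unadjusted p 0.0428). Of the 4 Y-linked genes, with log2 differences of 6.97 to 8.06, 0 passed in limma. A fit that misses these cannot show that the enzymes were equal between the sexes.

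At 12 weeks the sexes were compared without a test, since each had 1 library. At least 2-fold apart were 9 of the 37 enzymes, against 8.83% of all genes tested. The male library was higher in 6 (4.84% of all genes) and the female in 3 (3.98%). The 3 were Ugt1a1, Gstk1 and Gstm1. Gstk1 had 1544 normalized counts in the male and 4149.9 in the female library, a ratio of 2.69 (95% exact binomial interval 2.51 to 2.88, counting error only). Gstm1 had 2508 and 5984 (2.39, interval 2.26 to 2.52). Ugt1a1 had 0 reads in the male and 106 in the female library. On a floor of 3 reads per library, Ugt1a1 was at least 28.6-fold higher in the female (lower limit of the exact interval 22.85). The Ugt1a genes beside it were present in that male library, with 53.1 normalized counts of Ugt1a6a, 36.4 of Ugt1a6b and 44.7 of Ugt1a7c. Exon bases shared with no other gene numbered 385 for Ugt1a1, and 2142, 938 and 1915 for these genes in that order. How shared reads were counted is not known, so levels cannot be compared between these genes.

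Of the 6 higher in the male library, 3 (Ugt2b5, Ugt2b35 and Ugt2b36) had at most 2 reads in either library and give no fold. Ugt1a6b had 26 reads in the male and 9 in the female library (3.57, interval 1.62 to 8.66), and Sult2b1 had 29 and 15 (2.39, interval 1.24 to 4.80). Sult1e1, which sulfates estrogens, had 15 reads in the male and 1 in the female library (18.54, interval 2.85 to 780.4). It had 25.4 and 26.5 normalized counts at P1 and 1.78 and 4.41 at 2 weeks. With a pseudocount of 5 the count was 3 higher in each sex.

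The difference between ages was then tested, as the male-minus-female difference at 12 weeks minus its mean at P1 and 2 weeks, with 1 residual degree of freedom. In limma 3 of 37 passed (8.11%, against 1.58% of all genes, 0.861% toward the male and 0.718% toward the female library), all toward the female library: Ugt1a1 (-6.22 ± 0.613, adjusted p 5.59e-06), Gstm1 (-1.29 ± 0.299, adjusted p 0.0299) and Gstk1 (-1.25 ± 0.297, adjusted p 0.0344). In simulated data this fit made false calls more often than its threshold intends. With edgeR on the recovered reads 0 passed (8 at an unadjusted p under 0.05), with adjusted p of 0.128 for Ugt1a1, 0.343 for Gstm1 and 0.352 for Gstk1. At the 2 earlier ages Gstm1 had 1209 and 1378, then 1048 and 877 normalized counts (male and female), and Gstk1 had 684 and 685, then 1299 and 1658.

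**Figure D4:**
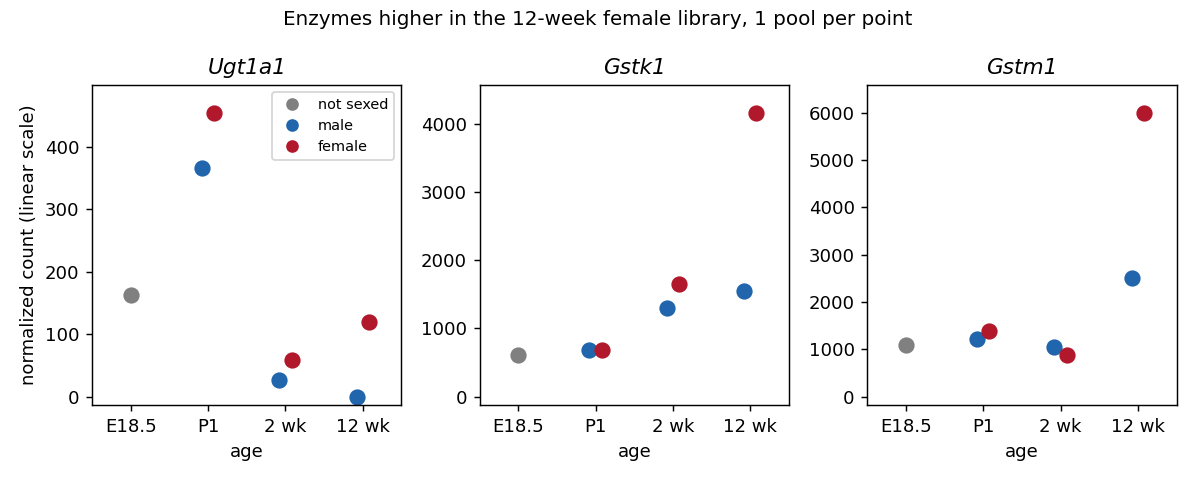
Normalized counts of Ugt1a1, Gstk1 and Gstm1 by age on linear axes, 1 point per library, with males in blue, females in red and the unsexed E18.5 pool in grey. In each gene the 12-week female point (119.9, 4149.9 and 5984) is above the 12-week male point (0, 1544 and 2508).

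Marker levels beside these differences were as follows. The hepatocyte sum was nearly equal in the 12-week libraries (female 0.951 times male), but the list was mixed. In the male and the female library Ahsg had 103 and 197 normalized counts and Afp 2.80 and 29.4. The other hepatocyte markers, such as Alb (247 and 157) and Apoa1 (39.2 and 13.6), were lower in the female library. The erythroid sum there was 0.485 times that of the male library. In both libraries 7 of 8 kidney markers and all 8 pancreas markers were at or under 3 reads. The cortex sum was 1.33 times higher in the 12-week female library. The 3 markers of the X-zone, which is lost in young male mice and kept longer in females, had 2.80 and 774 (Akr1c18), 0 and 28.3 (Pik3c2g), and 1444 and 3394 (Thrb) normalized counts in the male and the female library. Their part in the enzyme differences was not tested, and pool and sex cannot be told apart.

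At 2 weeks 8 of the 37 enzymes were at least 2-fold apart, against 4.24% of all genes tested (0.568% higher in the male and 3.67% in the female library). All 8 were higher in the female library. They were Ugt1a1, Ugt2b1, Ugt2b5, Ugt2b34, Ugt2b36, Sult1d1, Sult2a1 and Sult2a2, with ratios from 2.16 (Sult2a1, interval 1.42 to 3.34) to 4.05 (Ugt2b5, interval 2.12 to 8.37). The same library was higher in the sums of hepatocyte (2.61 times), skeletal muscle (18.1 times), erythroid (3.92 times) and X-zone (3.98 times) markers, while the adipocyte (1.08 times) and cortex (1.01 times) sums were nearly equal. Their part was not tested.

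At P1 10 of the 37 were at least 2-fold apart, against 6.78% of all genes tested. The male library was higher in 4 (3.75% of all genes) and that labelled female in 6 (3.03%). Higher in the male were Gsta2 (153 and 19.9 normalized counts, ratio 7.70, interval 4.74 to 13.3), Gstm6, Sult1d1 and Ugt1a2. The male library had 3.71 times the kidney sum and 65.5 times the pancreas sum. Higher in the library labelled female were Sult2a1 (13.9 and 117, ratio 8.41, interval 5.01 to 15.0), Sult2a2 (10.6 and 53.0, ratio 4.98, interval 2.66 to 10.02), Sult2a8, Ugt2b1, Ugt2b35 and Ugt8a. The hepatocyte sum there was 0.691 times that of the male library, but the list was mixed. Alb (207903 and 119886 normalized counts) and 5 others were lower there, and Apoa1 (12957 and 20508) and Apoa2 (3026 and 4299) were higher. Their part was not tested.

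From E18.5 to birth, 8 of the 37 enzymes were at least 2-fold higher in both P1 libraries and 0 were lower, against 2.91% and 2.24% of all genes tested (5.15% in either direction). Both differences share the E18.5 library, and no test was made. Ugt1a1 had 162 normalized counts at E18.5 against 367 (2.26 times, interval 1.91 to 2.69) and 454 (2.80 times, interval 2.35 to 3.34). Sult1d1 had 89.1 against 488 (5.48 times) and 224 (2.52 times). Ugt1a2 had 11.8 against 133 and 49.7, and Gsta2 had 7.56 against 153 and 19.9. The remaining 4, Sult2a1, Sult2a2, Sult2a8 and Ugt2b1, had 1.68 to 3.36 normalized counts at E18.5, which is 2 to 4 reads. The hepatocyte sum was 1.27 (male) and 0.875 (female) times its E18.5 level, and the kidney sum 7.09 and 1.91 times. The pancreas sum was 208 and 3.17 times its E18.5 level and the skeletal muscle sum 2.02 and 3.72 times. The part of these tissues was not tested.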

How the data were processed

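The authors deposited 1 table of normalized counts (a signal unit: reads per gene divided by 1 size factor per library) for the 7 libraries. Per the submitters' processing notes the tools were CASAVA 1.8.2, HISAT2 2.1.0, HTSeq 0.9.1 and DESeq2 2.11.40.6 with the build mm10. The annotation, counting mode and use of strand are not given in the sources used here. Whole reads were recovered from the deposited signal: 100% of values came out whole within 0.001 reads. The depths were 15184210 to 23551289 reads. Nothing says that pools are separate litters, so p-values measure only the spread between these libraries.

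The 16720 genes averaging 10 or more normalized counts were tested with limma 3.58.1 (R 4.3.3; lmFit, eBayes with a trend) on log2(normalized count + 1), two-sided, with Benjamini-Hochberg adjustment over all of them and a threshold of 0.05. The fits used the 6 postnatal libraries with sex or age as a block. The scale understates changes of low genes. As an alternative, edgeR 4.0.16 (quasi-likelihood, TMM) on the recovered reads called 2795, 2396 and 6754 genes for P1 to 2 weeks, 2 to 12 weeks and P1 to 12 weeks, 0 for sex and 11 for the 12-week departure of the sex difference. Single libraries were counted as 2-fold or 4-fold apart on log2(normalized count + 1). Ratios were given without a pseudocount, with exact binomial (Clopper-Pearson) 95% intervals. They, and the floor of 3 reads, cover counting error only: the labels name no molecular identifiers, so reads need not be separate molecules. The scripts were tested on simulated data. Gene positions are from GENCODE M21, promoter windows from RefSeq. The 50-base stretches, taken from the longest protein-coding transcript of each enzyme, were compared over all GENCODE M21 transcripts.

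Enzymes named with values passed a test for sex or its 12-week departure, were among the 8 largest rises or 8 largest falls past the threshold of an age fit and reached 100 normalized counts in one of its libraries, were 2-fold (12 weeks) or 4-fold (P1, 2 weeks) apart by sex or 2-fold above E18.5 at P1 and reached 50 there, or were among the 3 highest of a family by mean. Ugt1a6a, Ugt1a6b, Ugt2b1, Ugt2b35, Ugt2b36, Sult2a8, Sult2b1, Sult1e1 and Gstm6 were named after their values were seen. The enzymes, marker lists and tests were chosen with earlier results of these data known. The values of 1 gene of the pathway list are not reported here.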

Additional observations from a re-analysis of the deposited data

Results flagged for a closer look

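Of the enzymes tested, 3 had a sex difference at 12 weeks that departed from the mean of P1 and 2 weeks by a test of the difference itself in limma. The departure, male minus female on the log2(normalized count + 1) scale, was -6.22 for Ugt1a1, -1.29 for Gstm1 and -1.25 for Gstk1. Each was lower in the 12-week male than in the 12-week female library. The size for Ugt1a1 depends on the pseudocount, since its 12-week male library had 0 reads: with a pseudocount of 5 it was -3.99 (adjusted p 0.00362). With equal totals it was -6.19 (adjusted p 0.000998). It did not pass with edgeR (-9.28, adjusted p 0.128), without the trend in eBayes (adjusted p 0.306) or with every gene with a read tested (adjusted p 0.539). For Gstm1 and Gstk1 the size ranged from -1.32 to -1.28 and from -1.28 to -1.24 over the alternatives, with adjusted p from 0.0753 to 0.636 and from 0.0824 to 0.622. The library labelled P1 female, which enters all 3 departures, held Y-linked transcripts.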

How the results depend on the processing

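Of 521 alternative values for enzymes past a threshold in limma, 368 stayed past it with the same sign, 153 had the same sign but no longer passed, and 0 changed sign. With every gene with a read tested, so that more genes of low counts enter the adjustment, the counts of enzymes past the threshold were 0 from P1 to 2 weeks (19 at an unadjusted p under 0.05), 0 from 2 to 12 weeks (23), 13 from P1 to 12 weeks and 0 for the 12-week departure (7), all in limma. Without a trend in eBayes they were 9 from 2 to 12 weeks and 0 for the departure (11 at an unadjusted p under 0.05). The departure count was 1 with a pseudocount of 5, 1 with equal totals and 0 with edgeR (8 at an unadjusted p under 0.05). Leaving out one library at a time gave 0 to 16 enzymes from P1 to 2 weeks, 1 to 19 from 2 to 12 weeks and 15 to 24 from P1 to 12 weeks, and could not be fitted for the departure, since no residual degree of freedom is left. For sex over all ages every alternative gave 0. Enzymes at least 2-fold apart by sex without a filter numbered 21 at P1 and 14 at 2 weeks. At least 4-fold apart were 4 at P1, 0 at 2 weeks, 2 at 12 weeks and 0 from E18.5 to both P1 libraries, and with a pseudocount of 5 the last count at 2-fold was 5. The 4-fold counts used log2(normalized count + 1), while ratios were given without a pseudocount. Ugt2b5 at 2 weeks (ratio 4.05) was therefore not counted. Where no construction explains a change, the cause was not tested. Equal totals shifted all genes by -0.18 (male) and -0.16 (female) on the log2 scale from 2 to 12 weeks, and with them 3 enzymes were higher and 11 lower in that step, against 4 and 10. No paired analysis was possible because each group has 1 library and the labels carry no replicate numbers. Depth limits the enzymes under 10 normalized counts, which were not tested.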

Other observations

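The 26 enzymes that were not tested were low throughout, with Sult1c2 reaching the highest value (35.2 normalized counts, in P1 male). Sult1c2 had 3.36 normalized counts at E18.5, 35.2 and 19.9 at P1, 0.89 and 4.41 at 2 weeks, and 0 at 12 weeks. Ugt2b37 had 28.6 and 7.73 normalized counts at P1 (male and female) and 0 reads in all 4 later libraries, and Ugt1a10 had 24.5 and 2.21 at P1 and 0 reads later. These genes were chosen after their values were seen. Sult2a5, of the hydroxysteroid sulfotransferase cluster, was found in the 2-week libraries alone (8.01 and 10.6 normalized counts, 9 and 12 reads). Of the 56 enzymes with reads, the highest value was at P1 in 28 (15 male, 13 female) and at 12 weeks in 14 (6 male, 8 female). The 13 highest at either 12-week library among GST genes (5 male, 8 female) compare with 0 UGT genes and 1 SULT gene. The library of the highest value was not counted over all genes, so these counts describe the enzymes alone.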
